A study of Homo sapiens with 4 samples.

Results

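Promoter accessibility was examined at 42 antiviral interferon-stimulated genes in HEK293T cells with and without transfected MORC2. The members were fixed as a list of gene symbols and were found by Entrez identifier among the 28775 promoters of the count table. No measured value entered the rule, but the list was chosen with earlier results of these data known. All 42 had a row. The list holds the IFIT and OAS families, the MX GTPases, the IFITM proteins and BST2, RNA sensors, the ISG15 conjugation system, the transcription factors STAT2, IRF7 and IRF9, the PARP9, DTX3L and PARP14 group, and 12 further antiviral or interferon-induced genes.

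Interferons are secreted proteins that signal through cell-surface receptors, JAK kinases and STAT factors. Type I and type III interferons assemble a complex that contains STAT2 and IRF9 and binds the interferon-stimulated response element in the promoters of these genes. Double-stranded RNA and cytosolic DNA, such as transfected plasmid, are known triggers of interferon production, although HEK293T cells are known to respond weakly to cytosolic DNA. Chromatin accessibility reports how open a promoter is, and says nothing directly of the RNA made from it.

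Accessibility was measured by ATAC-seq, in which the Tn5 transposase inserts adapters into open DNA. HEK293T is an established cell line from human embryonic kidney, transformed with adenovirus DNA and expressing SV40 large T antigen. All cells were wild type for MORC2, an ATPase that the authors report to compact DNA in vitro. The control group held 2 libraries of cells given lipofectamine, and the overexpression group held 2 libraries of cells transfected with MORC2, fused to a green fluorescent protein, for 72 hours. Whether an empty plasmid was given with the lipofectamine is not stated, so the effect of MORC2 and that of transfected DNA cannot be told apart. The labels number the replicates of these 2 groups without saying whether they were separate cultures. If they were not, the p-values measure only technical spread between libraries.

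Total promoter counts ranged from 3734519 to 10255182 per library. The mitochondrial share was between 51.9% and 55.6% in control and between 73.8% and 74.7% in overexpression, which left 979895 to 4928862 nuclear counts. The median count of the members was 58 in control replicate 1, 42 in control replicate 2, 27.5 in overexpression replicate 1 and 15 in overexpression replicate 2. Values of single promoters were therefore least precise in overexpression replicate 2. Levels are given below as CPM, which scales each count to the TMM-adjusted library total. Promoters are compared by level, since the windows were described as equal in length. The authors removed reads of low mapping quality. How far this lowered the levels of related members, such as the IFITM genes or DDX60 and DDX60L, was not tested. At markers expressed in HEK293T, the promoter of VIM had 51.4 ± 0.191 CPM (SD, n = 2) in control, and those of the leukocyte genes PTPRC and CD3E had 0.490 ± 0.0128 and 0.837 ± 0.176 CPM.

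The sequence upstream of these genes carries the element through which interferon acts, and 8 stretches are shown to set it beside the levels that follow. Promoter sequences were taken from RefSeq (GRCh38.p14), whose table held 34 of the 42 members (81.0%), as 300 bases from 250 before to 50 after each listed start. IFIT2, OAS2, OASL, MX2, IFITM2, USP18, IRF7 and TRIM22 were not among the 34. The stretches below are the 150 bases before the first listed start, read 5′ to 3′ on the strand of the gene. Capitals mark each match to the core of the interferon-stimulated response element that lies wholly within the stretch. That core was searched as GAAA, then 2 bases of any kind, then GAAA, on either strand. At IFIT5 and IFITM1 a further match begins in the stretch, crosses the start and is left in lower case. HERC5 lies at chr4:88456969-88457118 (plus strand), IFIT5 at chr10:89414418-89414567 (plus strand) and ISG15 at chr1:1013347-1013496 (plus strand). IFIT1 lies at chr10:89392473-89392622 (plus strand), IFI44L at chr1:78620298-78620447 (plus strand) and IFITM1 at chr11:313890-314039 (plus strand). MX1 lies at chr21:41420408-41420557 (plus strand) and STAT2 at chr12:56360108-56360257 (minus strand).
HERC5: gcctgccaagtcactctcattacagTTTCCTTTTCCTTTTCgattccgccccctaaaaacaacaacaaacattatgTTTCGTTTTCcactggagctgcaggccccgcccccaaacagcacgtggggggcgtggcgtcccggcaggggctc
IFIT5: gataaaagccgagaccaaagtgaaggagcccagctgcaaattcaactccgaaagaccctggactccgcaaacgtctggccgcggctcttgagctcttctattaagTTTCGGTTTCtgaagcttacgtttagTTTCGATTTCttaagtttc
ISG15: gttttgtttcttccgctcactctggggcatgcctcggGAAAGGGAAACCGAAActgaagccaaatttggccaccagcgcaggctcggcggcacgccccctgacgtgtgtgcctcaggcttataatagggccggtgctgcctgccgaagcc
IFIT1: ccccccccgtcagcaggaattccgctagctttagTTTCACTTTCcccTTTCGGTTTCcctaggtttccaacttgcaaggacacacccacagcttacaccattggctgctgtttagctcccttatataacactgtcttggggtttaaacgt
IFI44L: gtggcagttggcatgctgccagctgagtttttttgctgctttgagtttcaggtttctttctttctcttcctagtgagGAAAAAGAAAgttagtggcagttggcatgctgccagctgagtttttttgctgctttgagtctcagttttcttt
IFITM1: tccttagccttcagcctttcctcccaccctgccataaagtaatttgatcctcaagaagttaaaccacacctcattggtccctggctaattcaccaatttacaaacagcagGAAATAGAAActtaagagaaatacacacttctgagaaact
MX1: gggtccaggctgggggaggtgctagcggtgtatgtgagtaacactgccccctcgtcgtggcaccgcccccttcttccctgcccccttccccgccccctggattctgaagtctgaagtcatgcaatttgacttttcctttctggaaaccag
STAT2: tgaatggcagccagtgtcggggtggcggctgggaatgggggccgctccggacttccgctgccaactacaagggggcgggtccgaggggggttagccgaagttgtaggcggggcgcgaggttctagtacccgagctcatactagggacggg
HERC5, IFIT5 and ISG15 were chosen as CpG-containing promoters with several matches, IFIT1 as a promoter with a pair of matches and fewer CpG, and IFI44L and IFITM1 as stretches with no CpG. MX1 and STAT2 were chosen as the members with the largest fold change and the highest level, and neither held a whole match in the stretch.

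A match to the response element was found in the 300-base window of 25 of the 34 members (73.5%), against 812 of 19554 genes in all (4.15%). With the first listed start alone the shares were 67.6% and 3.29%. Matches at 2 or more positions of the same start were found at 15 members (44.1%) and at 0.322% of all genes. Some of these overlap each other, as at HERC5, ISG15, BST2 and IFIH1, where a run of repeated GAAA holds a pair of matches. The gamma-activated site, an element of the interferon gamma response, searched as TTC, 3 bases of any kind and GAA, was found at 11 of 34 members (32.4%) and at 9.07% of all genes. Some of its matches overlap a response element match. A match describes these letters and is not a measured binding site.

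**Figure D1:**
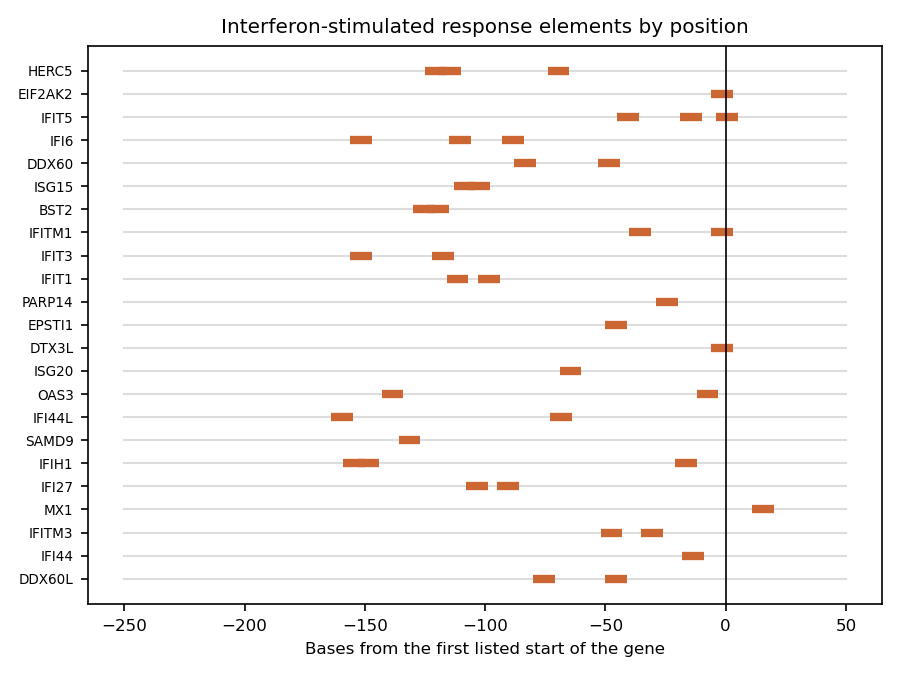
Position of each response element match (bar, 10 bases) in the window of 300 bases around the first listed start of the gene, in bases from that start (x axis), for the 23 members with a match there (rows, from the highest control level at the top to the lowest). Most matches lie before the start, the HERC5, ISG15, BST2 and IFIH1 rows hold overlapping matches, and the match of MX1 lies after the start.

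Most members had promoters of middling or low accessibility in control cells. The median of the 42 members was 4.15 CPM, against 7.04 CPM for the 28738 nuclear promoters, and 13 of the 42 lay above that nuclear median. The members spanned from 0.680 CPM at DDX60L, a paralogue of the RNA helicase DDX60, to 35.6 CPM at STAT2.

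STAT2, the STAT factor specific to type I and type III signalling, had 30.6 and 40.7 CPM in control against 31.9 and 31.5 CPM in overexpression, each pair given from replicate 1 to replicate 2 here and below. Its mean control level was at percentile 93.4 of nuclear promoters. ZC3HAV1, which encodes the CpG-recognising antiviral protein ZAP, came next at 24.1 and 20.6 CPM in control and 23.1 and 19.2 CPM in overexpression. STAT2 lay above ZC3HAV1 in each of the 4 libraries, and at both genes the groups overlapped.

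HERC5, the main ligase for ISG15 in human cells, had 18.8 and 18.3 CPM in control and 16.2 and 21.9 CPM in overexpression. Its paralogue HERC6 had 13.8 and 15.2 CPM in control and 15.7 and 9.94 CPM in overexpression. The overexpression libraries thus lay on either side of control at both genes. EIF2AK2, which encodes the double-stranded RNA kinase PKR, had 14.8 and 14 CPM in control and 12.7 and 13.7 CPM in overexpression. The control levels of HERC6 and EIF2AK2 overlapped, and the order of that pair was not resolved.

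At the other end, the 2-5A synthetase gene OAS1 had 18 and 10 counts in control (1.28 and 0.961 CPM) against 7 and 6 in overexpression (1.30 and 2.06 CPM). IFITM3, which blocks entry of viruses from endosomes, had 12 and 17 counts in control against 8 and 6 in overexpression. XAF1, a pro-apoptotic gene, had 20 and 13 counts in control against 13 and 6 in overexpression, and OAS2 had 20 and 15 counts in control against 7 and 11 in overexpression. MX1 completed the 5 lowest of the tested members at 1.67 ± 0.352 CPM in control (SD, n = 2). Each of these 5 genes overlapped its neighbours in the order, although both control values of OAS1 lay below those of OAS2 and MX1.

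The filter on low counts left out 4 members. TRIM22, an antiviral ubiquitin ligase, had 17 and 10 counts in control against 6 and 3 in overexpression. SAMD9L, a translation inhibitor, had 12 and 9 counts in control against 8 and 5 in overexpression. IFI44 had 14 and 5 counts in control against 9 and 1 in overexpression, and DDX60L had 11 and 6 in control against 9 and 4 in overexpression. In a fit without the filter none of the 4 passed (edgeR adjusted p from 0.323 to 0.984), and the standard errors were between 0.55 and 0.62 on the log2 scale. The log2 fold change there was 1.13 at DDX60L (SE 0.585), larger than that of MX1 in the same fit, 0.83 at SAMD9L, 0.60 at IFI44 and −0.05 at TRIM22. Both overexpression libraries lay above control at DDX60L and SAMD9L, in CPM.

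**Figure D2:**
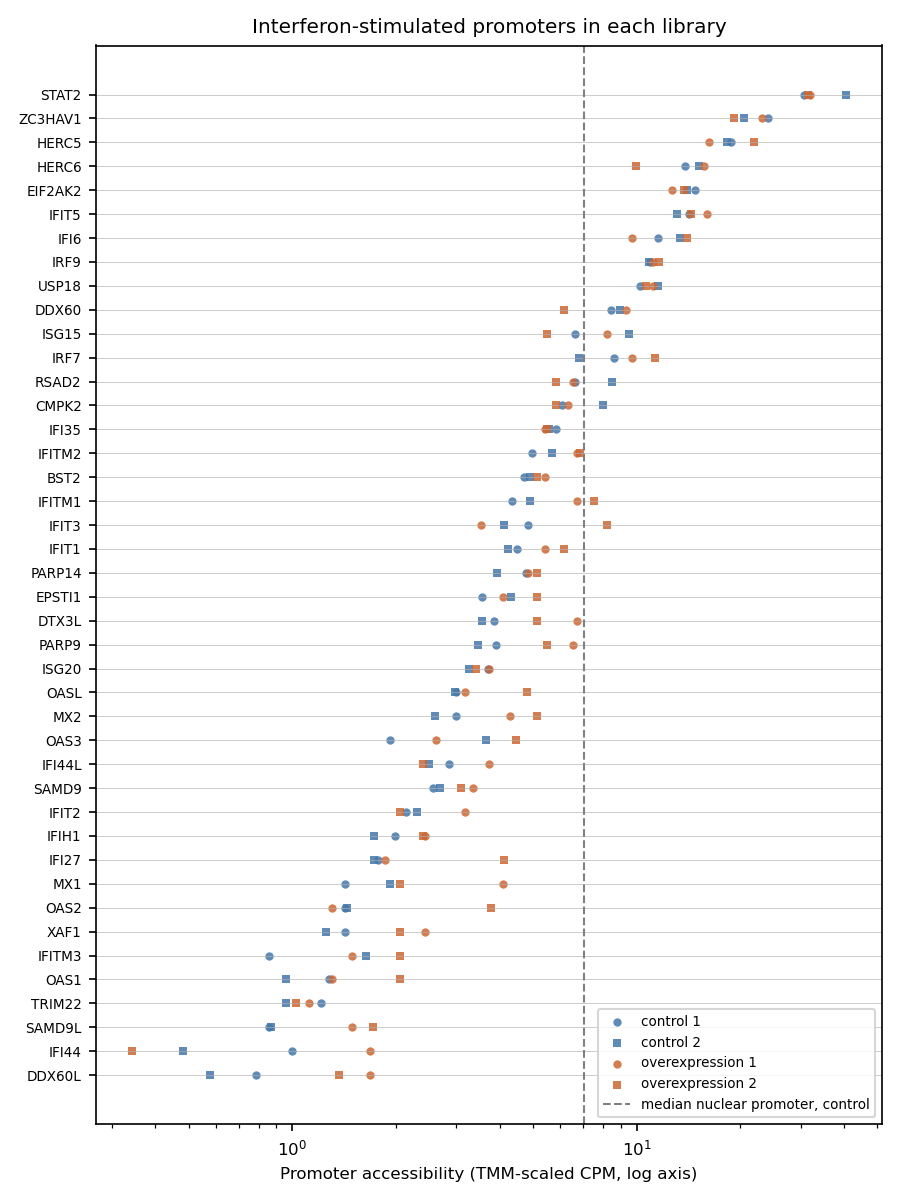
TMM-scaled CPM (x axis, log scale) of each of the 42 members (rows, in order of mean control level) in control replicates 1 and 2 (blue circle and square) and overexpression replicates 1 and 2 (orange circle and square), with the control median of nuclear promoters as a dashed line. STAT2 stands highest, the points of many genes interleave, and both overexpression points lie to the right of control at MX2, IFITM1, PARP9 and DTX3L.

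Members with more CpG in the promoter tended to have higher levels, as promoters in general did. The number of CpG dinucleotides in the 300 bases correlated with control CPM with a Spearman rho of 0.473 over the 34 members, and with mean accessibility with a rho of 0.525 over 17002 promoters. These are descriptions across genes of the same libraries, and genes are not independent replicates. With all promoters split by CpG count into 3 classes of similar size, 21 of the 34 members fell in the lowest class (0 to 15 CpG), 11 in the middle class and 2 in the highest (RSAD2 and EIF2AK2). CpG was counted at the first listed start alone. At CMPK2, whose counts nearly match those of RSAD2 (45 CpG), that start had 2 CpG and the other listed starts 41 and 38. At PARP9 it had 6 and the second start 29, against 20 at DTX3L. Both pairs of near-identical counts were thus split between classes. The median control level was 3.49 CPM for the members of the lowest class and 8.07 CPM for those of the middle class.

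**Figure D3:**
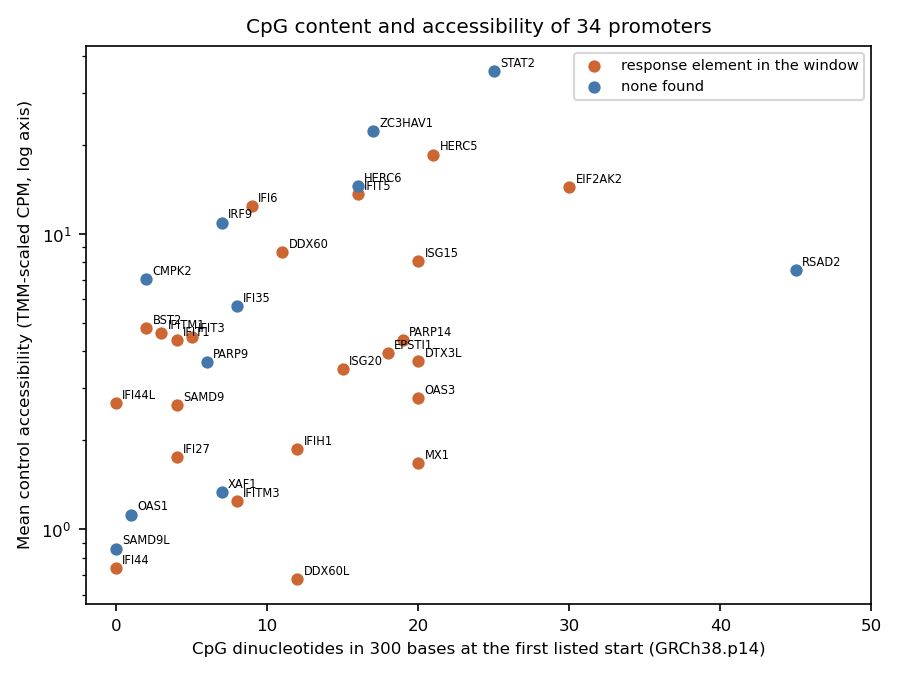
Mean control accessibility in TMM-scaled CPM (y axis, log scale) against the number of CpG dinucleotides in the 300-base promoter sequence (x axis) for 34 members, coloured by whether a response element match was found at the first listed start. STAT2, the highest, has 25 CpG and no match, and the members with no CpG in the window (IFI44L, IFI44 and SAMD9L) all lie below 3 CPM.

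To ask whether these promoters opened or closed with MORC2 transfection, overexpression was compared with control in a fit across all 23407 promoters that passed the filter, of which 38 were members. No member passed an adjusted p of 0.05 in edgeR's quasi-likelihood test, in either direction. The background was 2.47% of all promoters tested, with 1.16% called up and 1.3% called down. The smallest adjusted p of a member was 0.125, at MX1. By limma-voom the count was also 0, where 3.07% of all promoters passed, and DESeq2 gave an adjusted p for 1 member, STAT2, which did not pass.

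At an unadjusted p under 0.05, 5 members were higher in overexpression and none was lower. That is 13.2% of the 38, against 17.2% of all promoters tested, of which 8.66% were higher and 8.57% lower. MX1, MX2, IFITM1, PARP9 and DTX3L made up the 5, and the promoters of PARP9 and DTX3L are not separate measurements (see their counts below). In limma-voom 6 of the 38 members had an unadjusted p under 0.05, against 18.4% of all promoters tested, and in DESeq2 none did, against 6.44% of all.

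The overexpression libraries both lay above both control libraries at 18 of the 38 members (47.4%), and both lay below at 3 (7.89%). Over all promoters tested the 2 groups did not overlap at 49.7%, with overexpression above at 24.8% and below at 24.9%. This share depended on abundance: in the lowest of 4 equal bins of mean abundance, overexpression lay above at 44.1% of all promoters and at 6 of 11 members, and in the second bin at 35.3% and at 11 of 20 members. In the third bin it lay above at 13.5% and at 1 of 5 members, and in the highest bin at 6.49% and at neither of the 2 members.

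The median log2 fold change of the 38 members was 0.24, against 0.01 over all promoters tested, with 27 members above 0 and 11 below. Fold changes fell with abundance across the whole table, and the members were mostly low. In the lowest bin the median was 0.45 for the 11 members and 0.39 for all promoters. In the second bin it was 0.18 for 20 members and 0.13 for all, in the third −0.09 for 5 members and −0.05 for all, and in the highest −0.10 for 2 members and −0.13 for all. Read against the median of their own bin, 6 of 11, 12 of 20, 2 of 5 and 1 of 2 members lay above it. With loess scaling on abundance, which removes this trend, the median of the members was −0.02 and 16 of 38 lay above 0. With scaling to library totals, which include the mitochondrial counts, the median was −0.55 for the members and −0.78 for all promoters. That scaling moved members and other promoters alike, and the difference between the medians was 0.23 both there and with TMM scaling, against −0.014 with loess scaling.

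**Figure D4:**
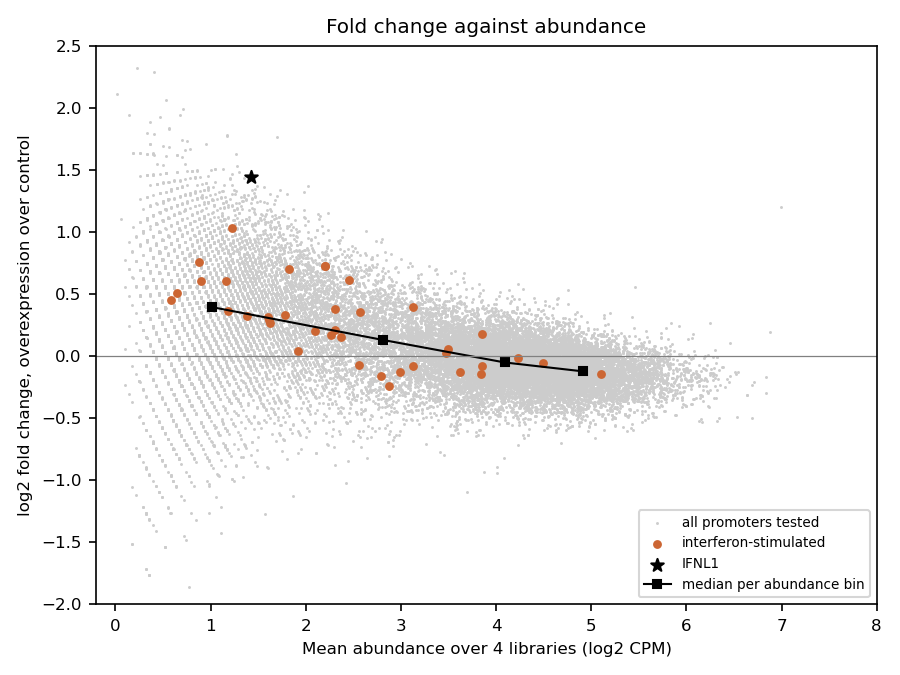
The log2 fold change of overexpression over control (y axis) against mean abundance in log2 CPM over the 4 libraries (x axis) for all promoters tested (grey), the 38 members (orange), IFNL1 (star) and the median of each of 4 abundance bins (black squares, drawn at the median abundance of the bin). Members lie on both sides of the bin medians, which fall from 0.39 to −0.13. Axes leave out 41 promoters, none of them a member.

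Precision set the limit on what could be seen. For all 38 members the 95% interval lay above a halving (log2 fold change of −1), and for 25 it also lay below a doubling. Standard errors on the log2 scale ran from 0.12 at STAT2 to 0.51 at OAS1, so a doubling could not be set aside for many of the low promoters.

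The MX GTPases, dynamin-like proteins that trap viral nucleocapsids, held the largest log2 fold change of the tested members, at MX1. MX1 had 20 counts in each control library, 22 in overexpression replicate 1 and 6 in overexpression replicate 2, which is 1.42 and 1.92 CPM against 4.10 and 2.06 CPM. The groups did not overlap, but overexpression replicate 2 was close to control replicate 2. The log2 fold change was 1.03 (SE 0.381, 95% interval 0.28 to 1.77, edgeR adjusted p = 0.125), and it was 0.33 without overexpression replicate 1 (adjusted p = 0.859). MX2 had 42 and 27 counts in control against 23 and 15 in overexpression, or 2.99 and 2.60 against 4.29 and 5.14 CPM. Its log2 fold change was 0.70 (SE 0.313, edgeR adjusted p = 0.222).

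The IFITM proteins and BST2 (tetherin) restrict viruses at membranes, by blocking fusion and by holding budding virions at the cell surface. IFITM1 had 4.35 and 4.90 CPM in control and 6.71 and 7.54 CPM in overexpression, with no overlap. Its log2 fold change was 0.61 (SE 0.250, edgeR adjusted p = 0.177), and it was 0.38 with loess scaling and −0.18 with library totals. None of the 4 in this group passed the test, and the median was 0.43 on the log2 scale, from 0.15 at BST2 to 0.61 at IFITM1. IFITM3 lay in the lowest abundance bin (median of all promoters 0.39). IFITM1, IFITM2 and BST2 lay in the second bin (0.13). BST2 had 66, 51, 29 and 15 counts, and its neighbours BISPR and MVB12A, with starts within 111 bases, had nearly the same counts. The count of BST2 is thus shared with theirs.

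PARP9, an ADP-ribosyltransferase family member, and DTX3L, a ubiquitin ligase, act as a complex and are transcribed from starts 38 bases apart. PARP9 had 55 and 36 counts in control against 35 and 16 in overexpression, and DTX3L had 54 and 37 in control against 36 and 15 in overexpression. The windows counted almost the same fragments, and the log2 fold changes were both 0.72 (SE 0.271), with edgeR adjusted p of 0.131 and 0.132. PARP14, a related ADP-ribosyltransferase, had a log2 fold change of 0.17 (SE 0.282).

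The 4 IFIT genes, whose proteins bind viral RNA, ranged from 0.17 at IFIT5 to 0.38 at IFIT1 on the log2 scale. Their median was 0.26 and none passed the test. IFIT2 lay in the lowest abundance bin (median of all promoters 0.39), IFIT1 and IFIT3 in the second (0.13) and IFIT5 in the third (−0.05). IFIT1 had 4.49 and 4.23 CPM in control and 5.41 and 6.17 CPM in overexpression, with no overlap. IFIT5 had 14.2 and 13.1 CPM in control and 16 and 14.4 CPM in overexpression, again with no overlap, although the start of LIPA lies 111 bases away and its window overlaps. At IFIT3 the overexpression replicates differed more from each other (3.54 and 8.22 CPM) than the groups did.

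The 4 OAS genes make or resemble the makers of the 2-5A signal for RNase L. They ranged from 0.29 at OAS3 to 0.61 at OAS2, with a median of 0.39 and none past the test. OAS1, OAS2 and OAS3 lay in the lowest abundance bin, where the median of all promoters was also 0.39. OASL lay in the second bin, where it was 0.13. OAS2 had 1.42 and 1.44 CPM in control and 1.30 and 3.77 CPM in overexpression, so the sign of its change came from overexpression replicate 2. Without that library its log2 fold change was −0.13. OAS3 had 1.92 and 3.65 CPM in control and 2.61 and 4.45 CPM in overexpression, and the groups overlapped. Its log2 fold change was −0.15 without control replicate 1, 0.77 without control replicate 2, 0.74 without overexpression replicate 1 and −0.03 without overexpression replicate 2.

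The RNA sensors and RNA-directed effectors showed no shared direction, with 2 of 5 tested members above 0, 3 below and a median of −0.05. IFIH1, which encodes the double-stranded RNA sensor MDA5, was the highest at 0.36 (SE 0.411), with 28 and 18 counts in control against 13 and 7 in overexpression. These counts matched those of GCA, whose start is 79 bases away, to within 1 count in each library. EIF2AK2 was the lowest at −0.15 (SE 0.169), and ZC3HAV1 had −0.05 (SE 0.137).

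The ISG15 system (the ubiquitin-like modifier ISG15, its ligase HERC5, its protease USP18, and the HERC5 paralogue HERC6) had values near 0 with all libraries in the fit. The log2 fold changes were 0.02 (SE 0.188) at USP18, −0.02 (SE 0.147) at HERC5, −0.09 (SE 0.167) at HERC6 and −0.13 (SE 0.228) at ISG15. The 95% interval of each lay between a halving and a doubling. ISG15 had 6.62 and 9.52 CPM in control and 8.20 and 5.48 CPM in overexpression, and in all 4 genes the groups overlapped. The values of ISG15, HERC5 and HERC6 depended on single libraries. Without overexpression replicate 1 they were −0.52, 0.24 and −0.54, and without overexpression replicate 2 they were 0.06, −0.19 and 0.12. ISG15 was −0.40 without control replicate 1 and 0.11 without control replicate 2.

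Of the transcription factors, IRF7, which drives interferon alpha genes, had 8.62 and 6.82 CPM in control and 9.69 and 11.3 CPM in overexpression. Its log2 fold change was 0.39 (SE 0.203, edgeR adjusted p = 0.305). IRF9, the DNA-binding partner of STAT2, had 0.06 (SE 0.186), and STAT2 had −0.15 (SE 0.120). All 3 intervals lay within a doubling in either direction.

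Among the 12 further members, 9 were tested and none passed, with a median of 0.20. RSAD2, which encodes the antiviral enzyme viperin, had the lowest value of all members at −0.24 (SE 0.242), with 6.62 and 8.46 CPM in control and 6.52 and 5.83 CPM in overexpression. CMPK2, a mitochondrial nucleotide kinase gene, starts 22 bases from RSAD2 and had nearly the same counts (85, 83, 34 and 17, against 93, 88, 35 and 17), so this pair is also 1 measurement. XAF1 was the highest at 0.76 (SE 0.438), with 1.42 and 1.25 CPM in control and 2.42 and 2.06 CPM in overexpression. The RSAD2 and CMPK2 pair, ISG15 and DDX60 had the lowest values against the median of their abundance bin.

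**Figure D5:**
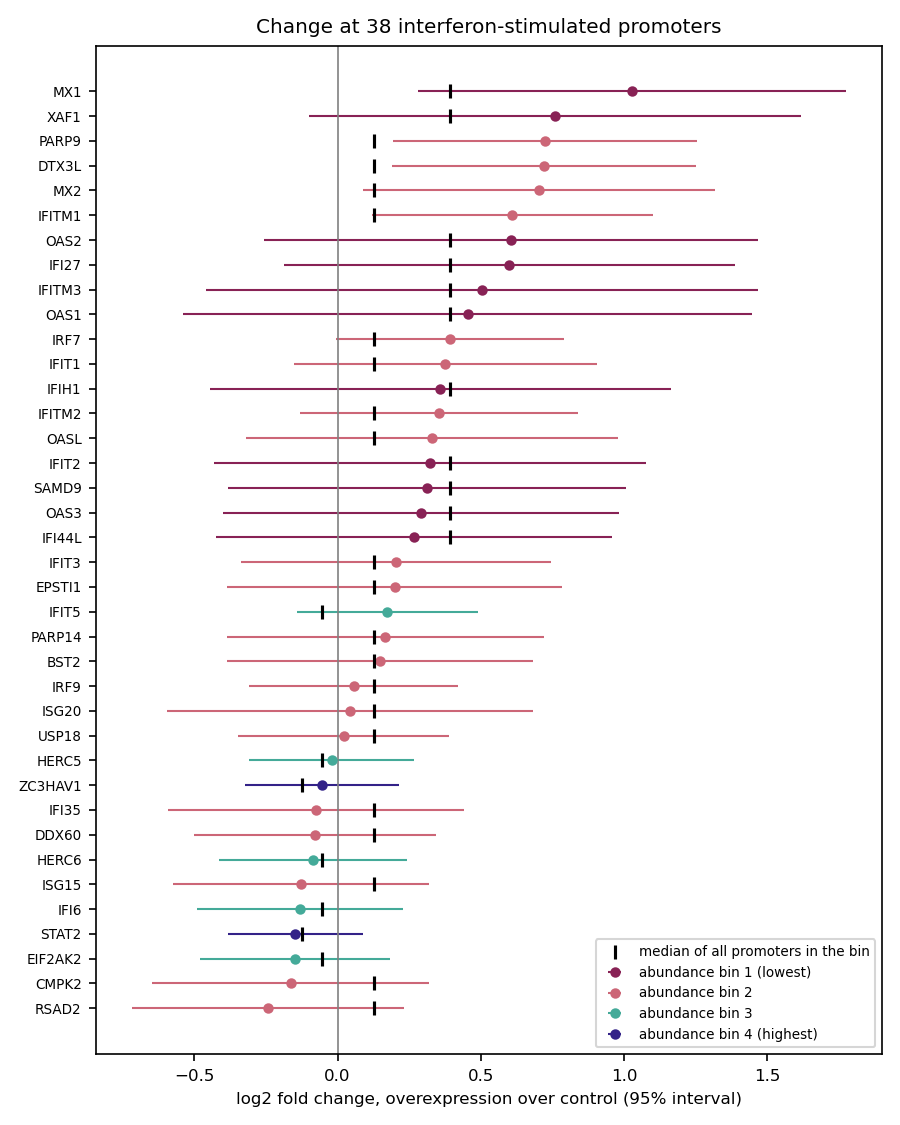
The log2 fold change of overexpression over control with its 95% interval (x axis) for the 38 tested members (rows, from highest to lowest), coloured by abundance bin, with the median of all promoters of the same bin as a black tick. MX1 stands at the top and RSAD2 at the bottom, low-abundance promoters have the widest intervals, and the intervals of PARP9 and DTX3L lie wholly above the tick of their bin.

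Fold changes also tended to be lower where CpG was more frequent, at members and at all promoters. The Spearman rho between CpG count and log2 fold change was −0.363 over 31 members and −0.358 over 17002 promoters, as descriptions. CpG was again counted at the first listed start, so RSAD2 and CMPK2, and PARP9 and DTX3L, entered at unlike CpG counts. In the lowest CpG class the median log2 fold change was 0.29 for 18 members and 0.19 for all promoters, and in the middle class 0.17 for 11 members and −0.06 for all. In the highest class it was −0.20 for 2 members and −0.09 for all. CpG count also rose with mean accessibility (rho 0.525 over 17002 promoters), and fold changes fell with abundance. Members and all promoters of a CpG class were not matched for abundance. How far these CpG values repeat the abundance trend was not tested.

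The summed level of the 42 members was 264 and 277 CPM in control and 288 and 290 CPM in overexpression, or 271 ± 9.65 and 289 ± 1.59 CPM (SD, n = 2). The groups did not overlap, and an exact permutation test of 2 libraries against 2 cannot give a p below 0.333. The summed level of the 5 leukocyte markers moved the same way, from 10.3 and 10.7 CPM to 14.7 and 15.1 CPM, with 3 of the 5 tested and none of those past the test. The summed level of the 6 markers expressed in HEK293T went from 87.4 and 89.3 CPM to 96 and 99 CPM. The median nuclear promoter also moved, from 6.98 and 7.11 CPM to 7.46 and 7.88 CPM. The mitochondrial share and depth differed between the groups as given above, and the part of these differences in the members' values was not tested.

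The rest of the pathway was read from 4 lists chosen by role, with earlier results of these data known. They held 31 genes, of which 23 were tested. Of these, 1 passed the threshold, IFNL1, which encodes interferon lambda 1, a type III ligand. IFNL1 had 25 and 16 counts in control against 26 and 12 in overexpression, or 1.78 and 1.54 against 4.85 and 4.11 CPM, with no overlap. Its log2 fold change was 1.44 (SE 0.352, 95% interval 0.75 to 2.13, edgeR adjusted p = 0.00824). The call was lost with loess scaling (1.03, adjusted p = 0.235), with library totals (0.65, adjusted p = 0.114) and in DESeq2 without independent filtering (1.44, adjusted p = 0.446). It was also lost without control replicate 1 (1.56, adjusted p = 0.0805), control replicate 2 (1.35, adjusted p = 0.0949) or overexpression replicate 1 (1.29, adjusted p = 0.213). The paralogue IFNL2 had 1.64 and 1.73 CPM in control and 1.68 and 3.77 CPM in overexpression. The authors removed reads of low mapping quality, and how far this lowered the counts of these related genes was not tested.

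The other 8 ligand genes (IFNA1, IFNA2, IFNB1, IFNE, IFNK, IFNW1, IFNG and IFNL3) had from 0 to 13 counts per library and were not tested. None of the 6 receptor genes passed, with log2 fold changes between −0.13 and 0.27. Of 10 JAK, STAT and IRF genes, none passed and 9 were below 0. IRF5, a factor of the Toll-like receptor response, was the exception at 1.02 (SE 0.323, edgeR adjusted p = 0.0642), with 2.99 and 1.44 CPM in control and 4.47 and 5.14 CPM in overexpression. It passed in limma-voom (adjusted p = 0.0274) and without control replicate 1 (1.70, adjusted p = 0.0496), whereas it was 0.65 without control replicate 2, 0.64 with loess scaling (adjusted p = 0.504) and 0.23 with library totals (adjusted p = 0.562). STAT3, the cytokine-responsive STAT, had −0.31 (SE 0.137, edgeR adjusted p = 0.203). Of 5 negative regulators none passed, and PTPN6, which encodes the phosphatase SHP-1, had the lowest value at −0.37 (SE 0.132, edgeR adjusted p = 0.0900).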

How the data were processed

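ATAC-seq libraries of HEK293T cells were compared in 2 groups of 2 libraries, with groups and replicate numbers taken from the sample labels. The authors aligned paired reads with Bowtie2 to the T2T-CHM13 assembly, removed duplicates with Picard, and deposited whole-number counts per promoter, without normalisation, for a window of 2 kb around the start. The deposited table has 1 row per Entrez identifier, and that it covers the whole window is an assumption. Which start of each gene the window used is not given. Overlapping windows can count a fragment more than once. The MACS2 peak lists were not used here, since placing peaks at genes needs an annotation of that assembly. Symbols and promoter sequences came from RefSeq tables of GRCh38.p14 (28763 promoters named, 12 not), which is another build, so they give names, neighbours and sequence only.

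Promoters were filtered with filterByExpr of edgeR 4.0.16 (R 4.3.3), scaled by TMM and tested with the quasi-likelihood F-test (two-sided, Benjamini-Hochberg over all 23407 promoters, threshold 0.05). The prior degrees of freedom were infinite, so dispersion was shared between promoters of like abundance. The test was checked on simulated data. Alternatives covered scaling, filter, test (limma 3.58.1, DESeq2 1.42.0), replicate block, mitochondrial promoters, threshold and leaving out each library. DESeq2 without independent filtering was added after seeing the data. Sequences and figures used Python 3.11.15, pandas 2.3.3 and matplotlib 3.10.9. The named promoters are members with an unadjusted p under 0.05, the 5 highest and 5 lowest tested members in control, members not tested, the extremes of each role group, members with shared windows, and pathway genes with an unadjusted p under 0.05. IFIT3, IFNL2 and DDX60 were also named after their values were seen, as were the members listed for a turn of sign. The members and the gene lists were chosen with earlier results of these data known.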

Additional observations from a re-analysis of the deposited data

How the results depend on the processing

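No member passed the adjusted p of 0.05 under any alternative except library totals, where 17 passed, all lower. The count over all promoters tested, 577, was 55 with loess scaling, 16319 with library totals, 218 where the mean count had to reach 50, 368 where each library had to reach 10 counts, 108 in DESeq2, 52 in DESeq2 without independent filtering, from 115 to 207 with each library left out in turn, and 1166 at an adjusted p under 0.1. The count over the pathway lists, 1, was 0 with loess scaling, 20 with library totals, 0 with a mean count of at least 50, 2 in limma-voom, 0 in DESeq2 without independent filtering, from 0 to 1 with each library left out, and 3 at an adjusted p under 0.1. DESeq2 with independent filtering gave no adjusted p for these lists. The median log2 fold change of the members minus that of all promoters, 0.23, was −0.014 with loess scaling, −0.013 with a mean count of at least 50 (14 members), and from 0.11 to 0.24 with each library left out, the lowest without overexpression replicate 2. With library totals, which moved the median of all promoters to −0.78, 37 of 38 members lay below 0, against 11 with TMM scaling. Among the 17 that passed there, the sign turned at USP18 (−0.78), IFIT5 (−0.62), BST2 (−0.65), PARP14 (−0.63), IRF9 (−0.74) and ISG20 (−0.75). Library totals include mitochondrial counts, and loess removes the trend with abundance by its construction. With 1 library left out, the sign of an uncalled change turned at STAT2, ZC3HAV1, HERC5, HERC6, USP18, ISG15, OAS2 and OAS3. Among the tested members it also turned at IFI6, DDX60, CMPK2, IFIT3, IFI44L, IFIT2 and ISG20. The causes of the other shifts were not tested.

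With the replicate number as a block, 488 promoters and 0 members passed (smallest adjusted p of a member 0.145), and the median difference was 0.22. Deviations of same-numbered libraries correlated at 0.05 over 14976 promoters with only 2 numbers, so the samples share a number and were not taken as pairs. Depth limits the low promoters most: overexpression replicate 2 had a median of 15 counts at the members.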
